A study of Mus musculus with 6 samples.

Results

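The 10 genes described here encode transcription regulators of the palatal mesenchyme, namely Msx1, Msx2, Pax9, Osr1, Osr2, Tbx22, Shox2, Meox2, Mn1 and Barx1. They were chosen by name, with earlier results of these data known, and are 10 of 53801 genes counted. Their RNA was compared between maxillary prominences of 3 WT and 3 Dlx2OE samples, all at embryonic day 12.5 and of the C57BL/6 strain (C57BL/6J in the protocols). WT embryos were wild type. Dlx2OE embryos carried Wnt1cre together with 1 Rosa26Dlx2 allele (Wnt1cre; Rosa26Dlx2/-), in which a CAG promoter drives Flag-tagged Dlx2 once Cre has removed a stop cassette. Wnt1cre is active in the neural crest lineage, so the mesenchyme of the maxillary prominence is targeted while its surface epithelium, endothelium and blood cells are not. Dlx2 is a homeodomain transcription factor of the first pharyngeal arch, and the comparison asks how its overexpression alters gene expression in the maxillary prominence.

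The secondary palate grows out of the maxillary prominences as a pair of shelves, which descend beside the tongue, turn upward and fuse. Their mesenchyme comes from the cranial neural crest and is patterned along the anterior-posterior and the medial-lateral axes. Msx1 and Shox2 are known as factors of the anterior palate, while Barx1, Meox2, Tbx22 and Mn1 are known as factors of the posterior palate. Osr2 and Pax9 are expressed along the shelf, Osr2 in a gradient across it, and Osr1 overlaps with Osr2. Loss of Msx1, Pax9, Osr2, Tbx22, Shox2, Meox2 or Mn1 in mice is linked to defects of the palate.

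Each sample had 26155500 to 31308813 counts on genes. Levels are given as CPM, read counts normalised to library sizes that were scaled by the TMM method, and the floor of 3 counts corresponded to 0.0955 to 0.111 CPM. At the Dlx2 gene, which was used to check the labels, WT samples had 42.9, 35.0 and 45.2 CPM and Dlx2OE samples 118.8, 130.6 and 123.2 CPM (log2 fold change 1.60, SE 0.118, adjusted p = 0.00241 by the quasi-likelihood F test of edgeR). Markers of facial mesenchyme were present in all 6 samples, with a summed level of 4994 to 5256 CPM over 10 genes in WT and 5643 to 5849 CPM in Dlx2OE. Markers of mandibular identity summed to 71.8 to 92.9 CPM over 7 genes in WT and 76.4 to 97.4 CPM in Dlx2OE, with Hand2, Dlx3, Dlx5, Dlx6 and Gsc detected in all 6 samples and Hand1 at 0 counts in 5 of them. Dlx2OE sample 3 stood apart by reads that fell on no gene, 14.7% against 5.03% to 7.82% in the others. Xist was at 1070 CPM or more in 5 of 6 samples while the Y-linked gene Ddx3y was at 16.1 CPM or more in all 6, and RNA of more than 1 embryo may thus be present in a sample.

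All 10 genes passed the filter on low counts, and 4 of them passed the adjusted p threshold of 0.05. Msx2 was upregulated in Dlx2OE, whereas Pax9, Tbx22 and Meox2 were downregulated. All 4 changed more than 2-fold. Among all 17514 genes tested, 6.45% passed the threshold, with 2.99% higher and 3.46% lower in Dlx2OE. At the 2-fold threshold as well, 1.50% of all genes were higher and 1.62% were lower. The other 6 genes, Msx1, Osr1, Osr2, Shox2, Mn1 and Barx1, did not pass the test. The genotypes did not overlap for 6 of the 10 genes, the 4 above with Msx1 and Barx1, against 34.1% of all genes tested. The median log2 fold change was -0.06 over the 10 genes and 0.00 over all genes tested, with 4 of the 10 above 0 and 6 below.

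**Figure D1:**
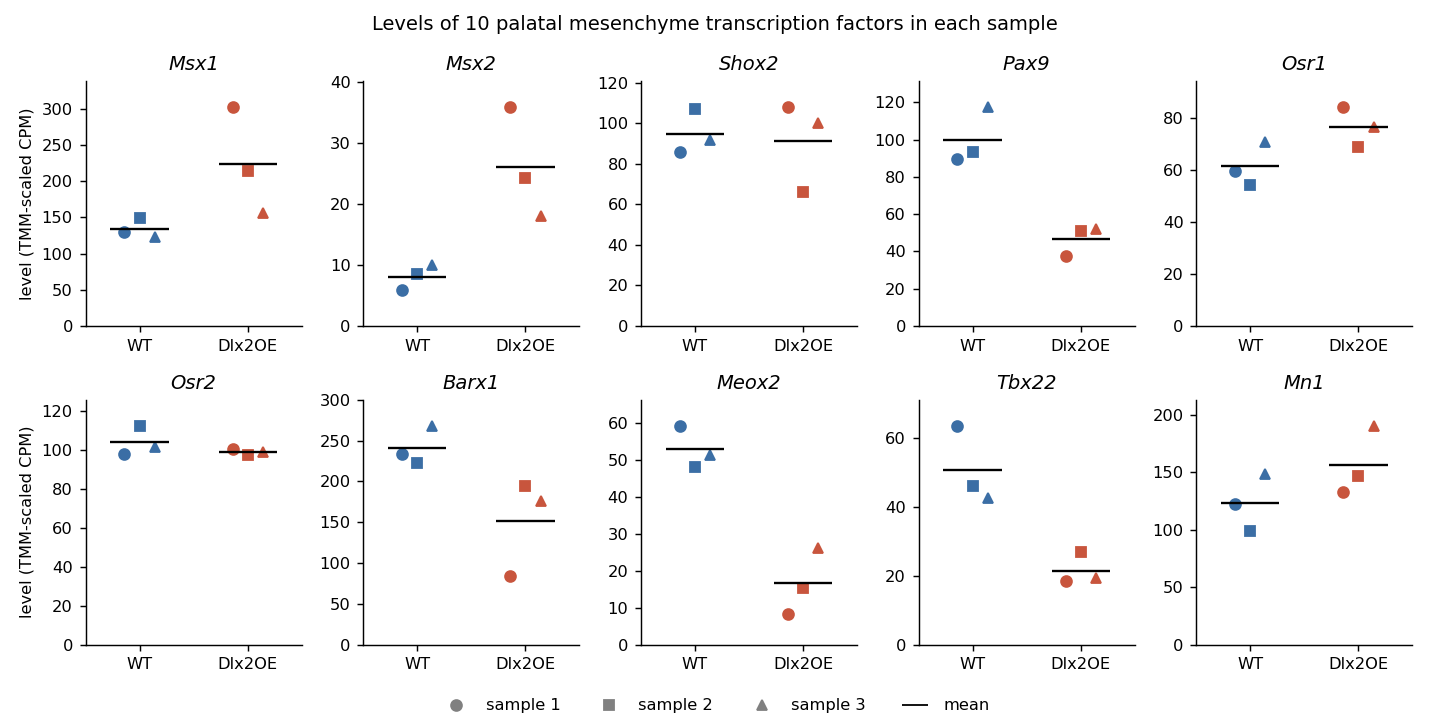
Level of each of the 10 genes in TMM-scaled CPM (vertical axes from 0, a separate scale for each gene) in the 3 WT and 3 Dlx2OE samples, with the mean as a bar. Msx2 lay between 5.84 and 9.94 CPM in WT and between 18.1 and 35.9 CPM in Dlx2OE, and Pax9, Tbx22 and Meox2 were lower in every Dlx2OE sample than in any WT sample.

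The Msx genes encode homeodomain repressors that act in the tooth buds, skull and palate, and Msx2 is the one also known for the control of cranial bone growth. Msx2 (ENSMUSG00000021469, chromosome 13, 53466884 to 53473074, minus strand, GRCm38) had 5.84, 8.46 and 9.94 CPM in WT and 35.9, 24.4 and 18.1 CPM in Dlx2OE. Every Dlx2OE sample lay above every WT sample, and Dlx2OE sample 1 was the highest. Mean levels were 8.08 ± 2.08 and 26.1 ± 9.04 CPM (SD, n = 3 each), an upregulation of 3.23-fold (log2 fold change 1.69, SE 0.289, 95% interval 1.02 to 2.36, adjusted p = 0.0211 by edgeR). Raw counts were 171 to 310 in WT and 489 to 1063 in Dlx2OE, which places Msx2 well above the floor. Without WT sample 1, WT sample 2 or Dlx2OE sample 2, the adjusted p of edgeR was 0.0744, 0.0992 and 0.0608, with log2 fold changes of 1.50, 1.72 and 1.74.

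Msx1 (ENSMUSG00000048450, chromosome 5, 37820485 to 37824583, minus strand) was far more abundant than Msx2. WT samples had 130.2, 148.7 and 123.3 CPM and Dlx2OE samples 302.1, 213.5 and 155.9 CPM. The genotypes did not overlap, but Dlx2OE sample 3 was only slightly above the highest WT sample. The log2 fold change of Msx1 was 0.74 (SE 0.222, 95% interval 0.23 to 1.25, not adjusted), with an adjusted p of 0.0794 by edgeR. Msx1 passed the threshold with DESeq2 (adjusted p = 0.00932), without the filter on low counts (adjusted p = 0.0273 by edgeR) and without Dlx2OE sample 3 (log2 fold change 0.94, adjusted p = 0.0453 by edgeR).

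The ratio of Msx2 to Msx1 is free of library scaling, since both counts come from the same sample. As counts per kb of exon on the log2 scale, it was -4.56, -4.22 and -3.71 in WT and -3.16, -3.21 and -3.19 in Dlx2OE. The means were -4.16 ± 0.43 and -3.19 ± 0.03 (SD, n = 3 each), so Msx2 was at 0.0558 of the Msx1 level in WT and at 0.110 in Dlx2OE. The SD among Dlx2OE samples was small although both genes differed widely among these samples, with coefficients of variation of 32.9% for Msx1 and 34.6% for Msx2. Msx3, the remaining gene of the family, was not tested, with only 0, 6 and 0 reads counted in WT and 1, 2 and 1 in Dlx2OE.

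Homeodomain proteins of the Dlx and Msx families bind DNA with the core letters TAATT, and the 250 bases before the annotated starts of the 10 genes were searched for it on both strands. RefSeq promoters of GRCm38.p6 were at hand for 7 of the 10 genes, not for Osr1, Osr2 and Mn1. These 7 genes had 9 windows, since Tbx22 has 3 RefSeq starts. The letters were found in 3 of the 9, those of Msx2, Pax9 and Shox2, and in 25% of 32851 windows of all genes. The Msx2 window held 3 matches, and 9.43% of all windows held 2 or more. The palindrome TAATTA, which counts on both strands, was found in Msx2 alone and in 4.84% of all windows. A match is a feature of the sequence and does not show binding. The stretch of Msx2 with its 3 matches, which start at -187, -186 and -176 from the RefSeq start and of which the first pair overlap, lies at chr13:53472945-53472974 on the minus strand, inside an exon that GENCODE annotates for Msx2. Capitals mark the match on either strand in this and the following sequences, written 5′ to 3′ along the gene. It is shown because Msx2 was the upregulated gene of the 10, and the Msx1 window (chr5:37824586-37824835, minus strand), which holds no match, is shown for comparison with it:
Msx2: gctcctgTAATTAactccTAATTtatttca
Msx1: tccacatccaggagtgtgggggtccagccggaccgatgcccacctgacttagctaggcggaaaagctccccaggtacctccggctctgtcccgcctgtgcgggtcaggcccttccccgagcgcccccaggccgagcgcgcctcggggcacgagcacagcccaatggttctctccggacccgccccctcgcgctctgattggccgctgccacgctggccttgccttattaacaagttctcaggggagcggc

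Pax9 encodes a paired-domain factor required for the palate, the teeth and the pharyngeal pouches. Pax9 (ENSMUSG00000001497, chromosome 12, 56691767 to 56712822, plus strand) had 89.6, 93.2 and 117 CPM in WT and 37.3, 51.1 and 51.8 CPM in Dlx2OE. All Dlx2OE samples lay below all WT samples, with a wide gap between them. Mean levels were 100.1 ± 15.1 and 46.8 ± 8.18 CPM (SD, n = 3 each), 2.14-fold lower in Dlx2OE (log2 fold change -1.10, SE 0.161, 95% interval -1.47 to -0.73, adjusted p = 0.0141 by edgeR). Pax9 had the smallest adjusted p of the 10 genes and kept its call in 5 of 6 fits with 1 sample left out. The exception was WT sample 2, without which the log2 fold change was -1.15 and the adjusted p 0.0657 by edgeR.

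The last exon of Pax9 shares 3.74% of the Pax9 exon sequence with Slc25a21 on the other strand, and the antisense gene Gm15524 begins within Pax9. The sources used here do not give the strand setting of the counting. For Slc25a21, WT counts of 53, 50 and 37 compared with 9, 32 and 15 in Dlx2OE (log2 fold change -1.30, adjusted p = 0.104 by edgeR). For Gm15524, WT counts of 103, 74 and 85 compared with 39, 46 and 50 in Dlx2OE (log2 fold change -0.91, adjusted p = 0.0749). Both were below their WT counts in every Dlx2OE sample without passing the test, and both are small beside the 1106 to 3662 counts of Pax9.

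Pax1, the closest paralog of Pax9 and a factor of the sclerotome and pharyngeal pouches, went the opposite way. Pax1 (chromosome 2, 147361925 to 147393295, plus strand) had 4.27, 12.4 and 6.54 CPM in WT and 159.1, 61.7 and 104.9 CPM in Dlx2OE. The lowest Dlx2OE sample was far above the highest WT sample. The increase was 14.01-fold (log2 fold change 3.81, SE 0.464, adjusted p = 0.00939 by edgeR), and it was called in all 6 fits with 1 sample left out. Per kb of exon, Pax9 had 19.8 ± 2.99 CPM in WT and 9.25 ± 1.62 in Dlx2OE, while Pax1 had 1.72 ± 0.935 in WT and 24.2 ± 10.9 in Dlx2OE (SD, n = 3 each). The more abundant gene of the pair was thus Pax9 in every WT sample and Pax1 in every Dlx2OE sample.

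**Figure D2:**
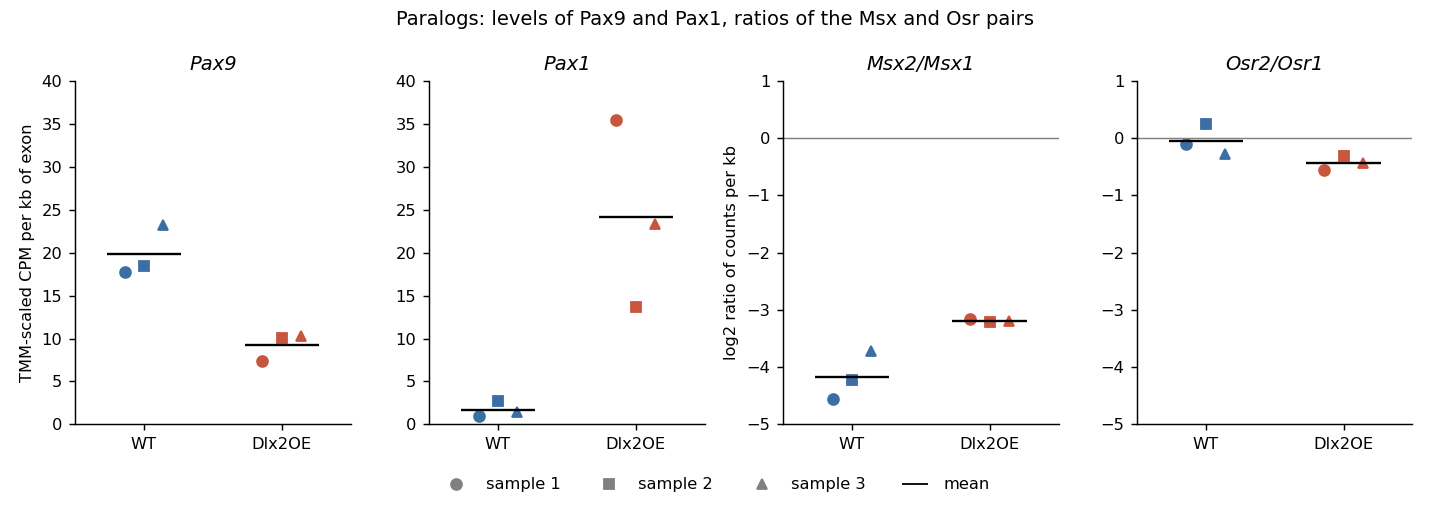
Left, level of Pax9 and Pax1 in TMM-scaled CPM per kb of exon for each sample. Right, log2 ratio of counts per kb for Msx2 to Msx1 and for Osr2 to Osr1 in each sample, with 0 as equal levels and the mean as a bar. Pax9 averaged 19.8 in WT and 9.25 in Dlx2OE, Pax1 1.72 and 24.2, and the Msx ratio moved from -4.16 to -3.19 on the log2 scale.

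The Pax9 window before its RefSeq start (chr12:56695221-56695470, plus strand) lies inside the GENCODE span of Pax9, with 0 of its 250 bases in exons. It holds 1 match, which starts at -177:
Pax9: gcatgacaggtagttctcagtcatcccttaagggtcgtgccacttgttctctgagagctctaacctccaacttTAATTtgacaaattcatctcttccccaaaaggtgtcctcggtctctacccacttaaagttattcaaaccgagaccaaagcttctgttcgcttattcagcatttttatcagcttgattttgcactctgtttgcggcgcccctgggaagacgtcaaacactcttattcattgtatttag

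Among the genes of the posterior palate, Meox2 and Tbx22 were downregulated. Meox2, a homeodomain factor of the somite and of the posterior palatal shelf (ENSMUSG00000036144, chromosome 12, 37108540 to 37179534, plus strand), had 59.3, 48.1 and 51.4 CPM in WT and 8.40, 15.4 and 26.3 CPM in Dlx2OE. The highest Dlx2OE sample was well below the lowest WT sample. Mean levels were 52.9 ± 5.78 and 16.7 ± 8.995 CPM (SD, n = 3 each), 3.18-fold lower in Dlx2OE (log2 fold change -1.67, SE 0.349, 95% interval -2.47 to -0.86, adjusted p = 0.0360 by edgeR). Meox2 had the largest decrease of the 10 genes and the widest spread among Dlx2OE samples, with a coefficient of variation of 53.9% against 10.9% in WT. Without WT sample 1, WT sample 2 or Dlx2OE sample 2, the adjusted p of edgeR was 0.109, 0.124 and 0.113, with log2 fold changes of -1.59, -1.74 and -1.61. Its paralog Meox1 had 4.46 ± 0.486 CPM in WT and 4.07 ± 1.07 in Dlx2OE (SD, n = 3 each), a log2 difference of -0.13 with an adjusted p of 0.750 by edgeR.

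Tbx22 is a T-box repressor whose human counterpart is mutated in X-linked cleft palate. Tbx22 (ENSMUSG00000031241, chromosome X, 107667964 to 107688978, plus strand) had 63.4, 46.1 and 42.5 CPM in WT and 18.4, 26.7 and 19.2 CPM in Dlx2OE. The genotypes did not overlap. Tbx22 fell from 50.7 ± 11.2 to 21.4 ± 4.59 CPM (SD, n = 3 each), 2.36-fold (log2 fold change -1.24, SE 0.1996, 95% interval -1.70 to -0.78, adjusted p = 0.0185 by edgeR). Tbx22 lies on the X chromosome, and Xist was at 1410, 10.2 and 1070 CPM in WT and 1184, 2169 and 2356 CPM in Dlx2OE. WT sample 2, which held the least Xist, was in the middle of the WT values of Tbx22. The part of the sex of the embryos in the result for Tbx22 was not tested. Without WT sample 1, WT sample 2 or Dlx2OE sample 3, the adjusted p of edgeR was 0.0567, 0.0768 and 0.0554, with log2 fold changes of -1.05, -1.31 and -1.17.

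The windows before the starts of Meox2 (chr12:37108290-37108539, plus strand) and Tbx22 (chrX:107667714-107667963, plus strand, the first of 3 RefSeq starts) hold no match to TAATT, and are shown as those of the other downregulated genes:
Meox2: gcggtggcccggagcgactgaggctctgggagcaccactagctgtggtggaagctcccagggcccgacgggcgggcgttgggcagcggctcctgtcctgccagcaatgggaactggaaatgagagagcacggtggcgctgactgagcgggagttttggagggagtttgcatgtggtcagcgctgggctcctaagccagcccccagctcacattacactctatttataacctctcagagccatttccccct
Tbx22: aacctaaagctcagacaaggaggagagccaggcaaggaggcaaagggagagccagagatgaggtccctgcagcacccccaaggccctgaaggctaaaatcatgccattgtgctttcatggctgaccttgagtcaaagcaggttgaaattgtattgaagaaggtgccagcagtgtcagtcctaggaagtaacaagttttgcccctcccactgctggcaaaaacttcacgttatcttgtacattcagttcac

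Barx1 is a homeodomain factor of the molar-forming and posterior region of the upper jaw. Barx1 (ENSMUSG00000021381, chromosome 13, 48662998 to 48666507, plus strand) had 234, 222 and 268 CPM in WT and 83.5, 194 and 175.5 CPM in Dlx2OE. All Dlx2OE samples lay below all WT samples, and Dlx2OE sample 1 was far below the other two. Mean levels were 241 ± 24.1 and 151 ± 59.2 CPM (SD, n = 3 each), with a log2 fold change of -0.68 (SE 0.279, 95% interval -1.32 to -0.03, not adjusted) and an adjusted p of 0.153 by edgeR. DESeq2 gave an adjusted p of 0.0419, and without Dlx2OE sample 1 the log2 fold change was -0.39. Its paralog Barx2 had 7.13 ± 0.750 CPM in WT and 8.66 ± 2.58 in Dlx2OE (SD, n = 3 each), with a log2 fold change of 0.28 and an adjusted p of 0.476.

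Mn1, a transcriptional cofactor required for growth of the posterior palate (ENSMUSG00000070576, chromosome 5, 111417362 to 111457033, plus strand), had 123, 98.5 and 148 CPM in WT and 132.5, 147 and 191 CPM in Dlx2OE. The genotypes overlapped, and the log2 fold change was 0.35 (SE 0.184, 95% interval -0.08 to 0.77, adjusted p = 0.242 by edgeR). The 4 genes known from the posterior palate therefore did not share a call by edgeR. Meox2 and Tbx22 were downregulated, while Barx1 (log2 fold change -0.68) and Mn1 (0.35) did not pass the test. Barx1 was also lower in every Dlx2OE sample than in any WT sample, and it passed the threshold with DESeq2.

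The odd-skipped zinc finger genes Osr1 and Osr2 and the short stature homeobox gene Shox2 did not pass the test either. Osr2 (ENSMUSG00000022330, chromosome 15, 35296098 to 35303305, plus strand), a factor of the palatal shelf and of tooth patterning, had 98.1, 112.6 and 101.8 CPM in WT and 100.8, 97.8 and 99.3 CPM in Dlx2OE. Its log2 fold change was -0.07 with a 95% interval of -0.28 to 0.14, the narrowest interval of the 10 genes. A change of Osr2 larger than 2-fold in either direction lies outside this interval. Osr1 (ENSMUSG00000048387, chromosome 12, 9570116 to 9581500, plus strand), known from kidney and heart, had 59.7, 54.0 and 70.6 CPM in WT and 84.0, 68.8 and 76.3 CPM in Dlx2OE. Its genotypes overlapped through WT sample 3, and the log2 fold change was 0.31 (95% interval 0.02 to 0.61, not adjusted, adjusted p = 0.149 by edgeR).

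The log2 ratio of Osr2 to Osr1 per kb of exon was -0.09, 0.25 and -0.28 in WT and -0.55, -0.30 and -0.43 in Dlx2OE. The difference of the means was -0.38, and the genotypes were separated only by the small gap between WT sample 3 and Dlx2OE sample 2. Shox2 (ENSMUSG00000027833, chromosome 3, 66971727 to 66981771, minus strand), which acts in the anterior palate, had 85.6, 106.9 and 91.9 CPM in WT and 107.8, 65.9 and 100.2 CPM in Dlx2OE. Dlx2OE sample 2 was the lowest and Dlx2OE sample 1 the highest of all 6 samples. The log2 fold change was -0.05 (95% interval -0.48 to 0.37, adjusted p = 0.857 by edgeR), and it turned to 0.13 without Dlx2OE sample 2, to 0.03 without WT sample 2 and to 0.01 with library size alone. The first exon region of Shox2 overlaps Rsrc1 on the other strand over 4.62% of its exon sequence, and Rsrc1 had a log2 difference of 0.03 (adjusted p = 0.907).

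**Figure D3:**
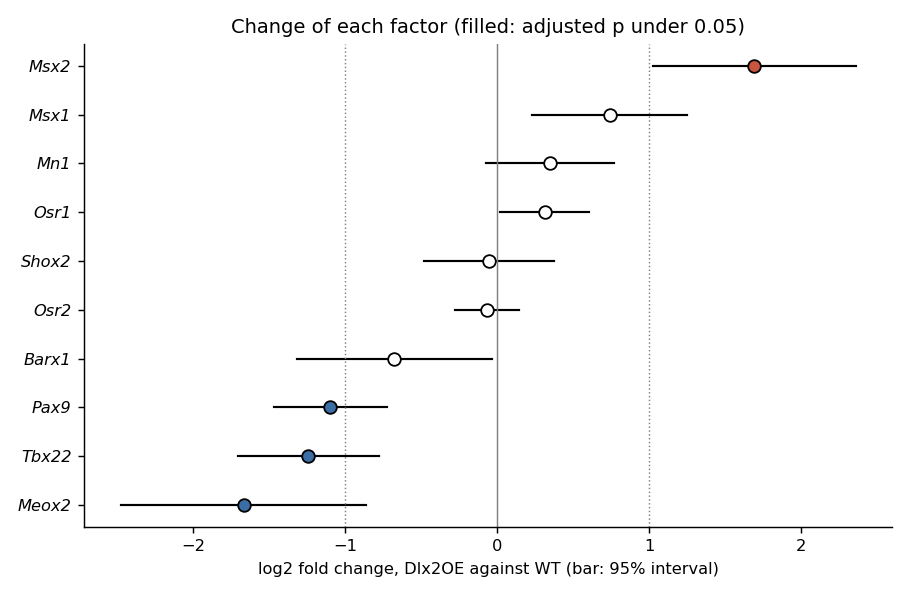
Log2 fold change of Dlx2OE against WT for each of the 10 genes (horizontal axis) with its 95% interval as a bar, not adjusted for the number of genes. Filled points mark an adjusted p under 0.05 by edgeR, which are Meox2 at -1.67, Tbx22 at -1.24, Pax9 at -1.10 and Msx2 at 1.69.

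Levels per kb of exon allow the genes to be ordered. In WT, Barx1 was the highest with 172 ± 17.2 CPM per kb, followed by Msx1 with 43.3 ± 4.24 (SD, n = 3 each). Osr1, Osr2 and Shox2 came next with 29.7 ± 4.09, 28.8 ± 2.07 and 28.6 ± 3.31, and their ranges overlapped from one to the next. Meox2 with 22.4 ± 2.45, Pax9 with 19.8 ± 2.99 and Mn1 with 17.8 ± 3.58 formed a further run of overlapping neighbors. Tbx22 with 9.13 ± 2.02 and Msx2 with 2.47 ± 0.633 were the lowest 2 genes and were separated from each other and from Mn1.

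In Dlx2OE, Barx1 with 108 ± 42.3 CPM per kb and Msx1 with 72.3 ± 23.8 (SD, n = 3 each) remained the highest 2 genes, but their ranges overlapped. Osr1, Shox2, Osr2 and Mn1 lay between 22.6 and 36.9 CPM per kb on average. Pax9, Msx2, Meox2 and Tbx22 made up the low end with means of 9.25, 7.96, 7.07 and 3.86 CPM per kb, and neighbors in that order overlapped. Meox2 went from place 6 to place 9 and Msx2 from place 10 to place 8. Summed over the 10 genes, the level was 939 to 1025 CPM in WT and 905 to 913 CPM in Dlx2OE.

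**Figure D4:**
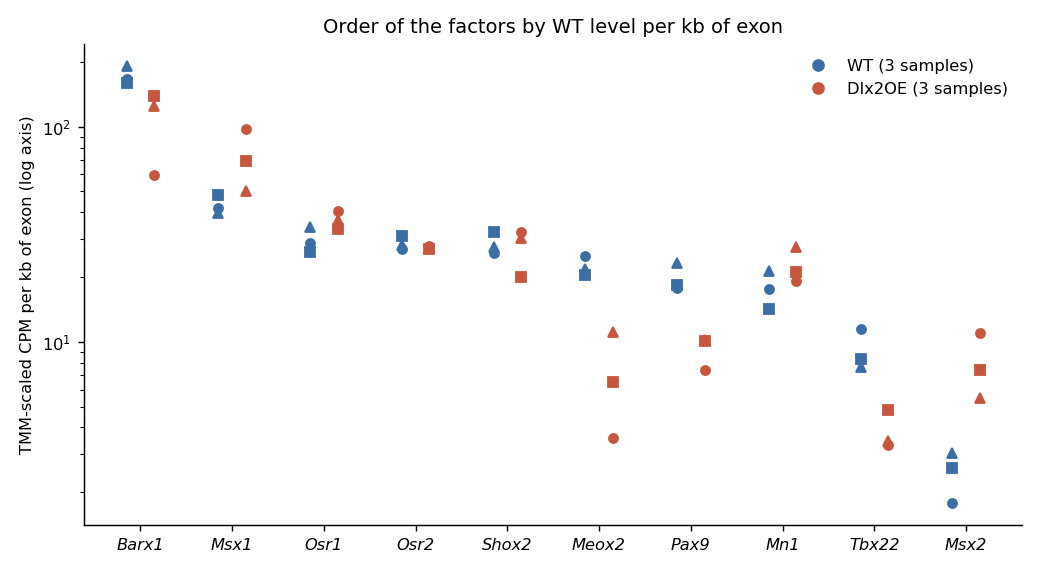
Level of the 10 genes in TMM-scaled CPM per kb of exon (log axis) for the 3 WT and 3 Dlx2OE samples, with the genes ordered by their WT mean. Barx1 averaged 172 in WT and Msx2 2.47. The genotypes do not overlap for Msx2, Meox2, Tbx22, Pax9, Msx1 and Barx1, with only a small gap for Msx1.

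The Dlx2OE samples differed among themselves along the same order for several of the genes. Dlx2OE sample 1 had the highest Dlx2OE level of Msx1, Msx2, Osr1, Osr2 and Shox2 and the lowest level of Pax9, Tbx22, Meox2, Mn1 and Barx1. Dlx2OE sample 3 had the lowest level of Msx1 and Msx2 and the highest of Pax9, Meox2 and Mn1. The share of reads that fell on no gene also rose from Dlx2OE sample 1 to sample 3, with 5.75%, 7.82% and 14.7%. The level at the Dlx2 gene differed little among these samples, with 118.8, 130.6 and 123.2 CPM (SD 5.96). The part of either in the spread of the 10 genes was not tested.

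Markers of other cell types also differed among these samples. The summed level of 12 epithelial markers was 862 to 1539 CPM in WT and 2049, 659 and 672 CPM in Dlx2OE samples 1 to 3. Most of the sum in Dlx2OE sample 1 came from Krt5, Krt14 and Krt15, keratins of basal epithelium, which were set apart after their values were seen and summed to 1196 CPM there against 210 to 440 CPM in WT. The other 9 epithelial markers summed to 652 to 1098 CPM in WT and to 853, 392 and 352.5 CPM in Dlx2OE samples 1 to 3, so that sample 1 lay within the WT range and samples 2 and 3 below it. The summed level of 10 neuronal markers was 90.8, 356 and 208 CPM in WT samples 1 to 3 and 204, 543 and 1127 CPM in Dlx2OE samples 1 to 3. Across the Dlx2OE samples this was the order of Pax9, Meox2 and Mn1 and the reverse order of Msx1 and Msx2. Tbx22, Barx1, Osr1, Osr2 and Shox2 followed neither order there. Across the WT samples, Meox2 ran in the reverse order of the neuronal sum, and Pax9, Mn1, Msx1 and Msx2 in neither order. None of these 10 neuronal genes passed the test, 2 were higher at an unadjusted p under 0.05 (14.1% of all genes tested were), and all 10 had a log2 fold change above 0, with a median of 1.37. Markers of crest-derived glia followed the order of the neuronal markers across the Dlx2OE samples but not across the WT samples. Their summed level over 6 genes was 141, 144 and 147.5 CPM in WT samples 1 to 3 and 93.2, 190 and 316 CPM in Dlx2OE samples 1 to 3. Of these glial genes, 0 of 5 tested passed by edgeR (1 higher and 0 lower at an unadjusted p under 0.05). The summed level of 10 erythroid genes was 3276 to 4353 CPM in WT and 1962 to 2539 CPM in Dlx2OE, with 3 of 10 downregulated. The summed level of 8 macrophage markers was 67.0 to 75.5 CPM in WT and 40.1 to 53.4 CPM in Dlx2OE, with C1qa and C1qb downregulated. Endothelial markers summed to 306.5 to 456.5 CPM in WT and 218 to 345 CPM in Dlx2OE, with 1 of 8 downregulated (Emcn) and all 8 below 0. Markers of skeletal muscle summed to 117 to 221 CPM in WT and 45.4 to 129.5 CPM in Dlx2OE, and all 7 tested were below 0 with 0 past the threshold by edgeR (2 lower at an unadjusted p under 0.05). Markers of forebrain and eye summed to 20.6 to 80.4 CPM in WT and 31.1 to 74.7 CPM in Dlx2OE, with 1 of 6 tested upregulated (Emx2). The 10 markers of facial mesenchyme, summed further above, had 3 upregulated (Twist1, Twist2 and Alx4) and 0 downregulated, and 9 were above 0. Beside these counts of markers, 2.99% of all genes tested were upregulated and 3.46% downregulated. In bulk tissue, fewer cells of a type and less RNA per cell cannot be told apart, and the part of these markers in the results for the 10 genes was not tested.

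The number of calls changed when single samples were left out, while the 4 called genes kept their direction. With 1 sample left out, the number of the 10 genes past the threshold was 1 without WT sample 1 (Pax9), 0 without WT sample 2, 4 without WT sample 3, 4 without Dlx2OE sample 1, 2 without Dlx2OE sample 2 (Pax9 and Tbx22) and 4 without Dlx2OE sample 3 (Msx1, Msx2, Pax9 and Meox2). The number of all genes past the threshold moved with it, from 79 without WT sample 2 to 2091 without WT sample 3. Across these 6 fits the log2 fold change was 1.38 to 1.90 for Msx2, -1.18 to -0.97 for Pax9, -1.43 to -1.05 for Tbx22 and -2.15 to -1.36 for Meox2. No sign of these 4 genes changed in any fit.

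**Figure D5:**
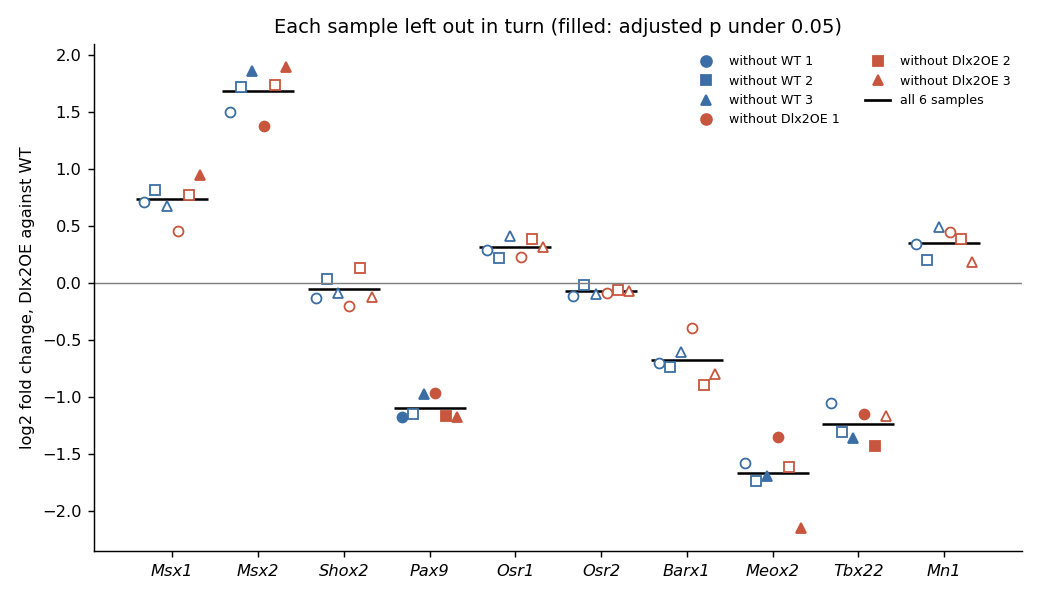
Log2 fold change of each gene with each of the 6 samples left out in turn (points) beside the value from all samples (bar). Filled points mark an adjusted p under 0.05. Msx2 stayed between 1.38 and 1.90 and Meox2 between -2.15 and -1.36, while Shox2 lay on both sides of 0, from -0.20 to 0.13.

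Other transcription factors of facial and palatal mesenchyme moved in both directions, with 5 of 26 upregulated and 4 downregulated. Of all genes tested, 2.99% were upregulated and 3.46% downregulated. The median log2 fold change over the 26 genes was -0.14. The upregulated genes of smallest p were Tbx2 (log2 fold change 0.87, adjusted p = 0.0134 by edgeR), Tfap2a (1.48, adjusted p = 0.0207), Alx4 (1.39, adjusted p = 0.0211) and Twist1 (0.65, adjusted p = 0.0402). The downregulated genes were Six2 (log2 fold change -1.08, adjusted p = 0.00802), Foxf1 (-1.17, adjusted p = 0.0101), Tbx1 (-1.01, adjusted p = 0.0416) and Foxf2 (-1.57, adjusted p = 0.0454). Foxf1 and Foxf2 are forkhead factors of the shelf mesenchyme, and both were lower in all Dlx2OE samples than in any WT sample. The genotypes did not overlap for 34.1% of all genes tested.

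Signals and receptors of palatal shelf growth had 1 of 24 upregulated, Wnt5a, with 79.1, 84.4 and 91.4 CPM in WT and 350.2, 224.5 and 186.5 CPM in Dlx2OE (log2 fold change 1.58, adjusted p = 0.0125 by edgeR). Wnt5a is a noncanonical Wnt ligand required for normal growth of the palate. The 3 downregulated genes of this list were Sema3d (log2 fold change -0.99, adjusted p = 0.0145), Shh (-1.30, adjusted p = 0.0228) and Tgfb3 (-0.79, adjusted p = 0.0332). Shh and Tgfb3 are made by the palatal epithelium, Tgfb3 by the cells of the medial edge. Of the 12 epithelial markers summed above, 2 were downregulated, Krt8 and Krt18, and their part in the result for these ligands was not tested. The median log2 fold change over the 24 genes was 0.06. At the same threshold, 2.99% of all genes tested were upregulated and 3.46% downregulated.

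BMP signaling is known to act upstream and downstream of the Msx genes. Of 28 genes of the pathway, 27 were tested, with a median log2 fold change of -0.07. By edgeR, 2 were upregulated and 0 were downregulated, against 2.99% and 3.46% of all genes tested. At an unadjusted p under 0.05, 2 were higher and 2 were lower, against 14.1% and 15.4% of all genes tested. The upregulated genes were the inhibitors Grem1 (log2 fold change 1.31, adjusted p = 0.0145) and Smad7 (0.68, adjusted p = 0.0203). No ligand, receptor or Id gene of this list passed the test. Of the 14 genes named from these 3 lists, 11 lost their call without WT sample 1, 12 without WT sample 2, 2 without WT sample 3, 1 without Dlx2OE sample 1, 8 without Dlx2OE sample 2 and 4 without Dlx2OE sample 3. Six2 was called in all 6 of these fits. With library size alone, Tbx1, Foxf2 and Tgfb3 lost their calls (adjusted p = 0.0609, 0.0583 and 0.0573 by edgeR), as did Twist1 with the replicate number as a block (adjusted p = 0.0620).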

How the data were processed

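RNA-seq of maxillary prominences was analysed in 3 WT and 3 Dlx2OE samples. The authors mapped reads to mm10 with STAR 2.7.3a and counted them per gene with HTSeq 0.12.4 (versions from the submitters' processing notes), and they deposited raw counts per gene without normalization. The annotation release and the strand setting of the counting are not given in the sources used here. Each file has 5 summary lines, with 16.8% to 25.3% of its reads, which were left out of library sizes and tests. Symbols and positions came from GENCODE M21 (GRCm38), which holds 53706 of 53801 identifiers. Promoter windows came from RefSeq (GRCm38.p6).

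The counts were tested with the quasi-likelihood F test of edgeR 4.0.16 in R 4.3.3 on genotype alone, with TMM scaling, filterByExpr at a minimum count of 10 and Benjamini-Hochberg adjustment over 17514 genes. The prior count of the test was left at the default of edgeR. A prior count of 2 entered only the log CPM values behind the correlations between samples. Levels are CPM after TMM scaling, and SDs are over the 3 samples of a genotype. Totals of 26155500 to 31308813 counts set the counting precision, and intervals and floors cover only part of the error, since reads amplified from 1 molecule are not independent. The labels call the samples biological replicates from littermates, and where embryos were pooled the p-values measure the spread between pools. An exact permutation test of 3 against 3 samples cannot go below 0.1 and was not used.

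The 10 genes and all lists were chosen with earlier results of these data known. Named besides the 10 genes were Dlx2, the paralogs, overlapping genes, up to 4 genes of smallest p in each direction from the 3 lists of palate factors, palate signals and BMP genes, and marker genes that stand beside a result. The alternatives were DESeq2 1.42.0, RLE factors, library size alone, no filter, a minimum of 10 in each of the 6 samples, the replicate number as a block, a fit without mitochondrial and haemoglobin genes, and each sample left out in turn. The same alternatives for genes other than the 10 and Dlx2 were added after the data were seen. The scripts were tested on simulated counts. Figures were drawn with matplotlib 3.10.9.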

Additional observations from a re-analysis of the deposited data

Results flagged for a closer look

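Reads assigned to no gene were 5.75%, 7.82% and 14.7% in Dlx2OE samples 1 to 3, above all WT samples, which had 5.03% to 5.43%. The sense intronic gene Gm48617 (chromosome 12, 37049217 to 37147149, GRCm38) begins before Meox2 and overlaps its span over 38610 bases. It had 3 and 20 counts in Dlx2OE samples 2 and 3, and 0, 0 and 1 in WT. Gm43119, inside the span of Mn1 (chromosome 5, 111423589 to 111425710), had 37 counts in Dlx2OE sample 3, against 4 and 9 in the other Dlx2OE samples and 8, 7 and 10 in WT. Both were highest in the sample with the largest share of reads on no gene.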

How the results depend on the processing

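Msx2, Pax9, Tbx22 and Meox2 passed the threshold under all 7 settings that keep all samples. With 1 sample left out, between 0 and 4 of the 10 genes passed the threshold, and between 0 and 3 at 2-fold, while all genes past the threshold numbered 79 to 2091 and those at 2-fold 74 to 1173. All genes past the threshold numbered 1130 in the reported fit, 2428 with DESeq2 and 2044 without the filter, and those past 2-fold as well numbered 546, 887 and 1003. Shox2 changed sign with library size alone (log2 fold change 0.011), and ran from -0.20 to 0.13 with 1 sample left out (0.033 without WT sample 2 and 0.132 without Dlx2OE sample 2). Meox1 ran from -0.29 to 0.056 with 1 sample left out.

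Samples with the same number did not deviate together (correlations of -0.07, -0.21 and 0.07 for numbers 1 to 3). Pairs with unlike numbers ran from -0.204 to 0.345. With 3 samples a genotype, these correlations cannot decide whether samples of the same number share a litter or batch. With the replicate block, 961 genes passed the threshold and the same 4 of the 10 genes were called, Msx2 with a log2 fold change of 1.66 and an adjusted p of 0.0485 by edgeR. Of the other genes named, Twist1 lost its call with the block (log2 fold change 0.66, adjusted p = 0.0620). Each of the 10 genes had at least 171 counts in every sample, and there were 3 samples a genotype to estimate the spread.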
